A study of Homo sapiens with 6 samples.

Results

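The core of transforming growth factor beta (TGF-beta) signalling was followed in A549 cells by RNA-Seq as 10 genes. They were chosen by name, with earlier results of these data known. The set holds the 3 ligand genes TGFB1, TGFB2 and TGFB3, the 3 receptor genes TGFBR1, TGFBR2 and TGFBR3, and the SMAD genes SMAD2, SMAD3, SMAD4 and SMAD7. They are 10 of the 23180 gene symbols in the deposited table, each read from its transcript with the most counts, and all 10 were among the 13877 genes that passed the filter on low counts. A549 is an established human lung adenocarcinoma cell line with an epithelial origin, here of wild-type genotype and at passage 11. The siControl group and the siKMT9α#1 group each held 3 samples, which the labels call biological replicates, and the study's methods state transfection of A549 cells with 65 nM siRNA and harvest for RNA after 3 days. The comparison asks how transcript levels change when KMT9α, the catalytic subunit of the histone H4 lysine methyltransferase KMT9, is knocked down. The model is a single cell line and a single siRNA against KMT9α, so an effect of the knock-down and an effect particular to that siRNA cannot be told apart here. The labels do not say whether replicates came from separate cultures, and the p-values measure the spread between these samples.

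TGF-beta ligands are secreted as latent complexes and act, once released, on a pair of membrane kinases: TGFBR2 binds the ligand and phosphorylates TGFBR1, while TGFBR3 (betaglycan) presents ligand and is especially known for presenting the TGFB2 product. TGFBR1 then phosphorylates SMAD2 and SMAD3, which join SMAD4, enter the nucleus and regulate transcription, and SMAD7 is an inhibitory SMAD that targets the receptors and is itself induced by the pathway. In lung epithelial cancer cells the pathway is known for restraint of growth, for epithelial-mesenchymal transition and for matrix production.

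N6AMT1, the gene for KMT9α, was measured first. Its level was 10.2, 10.8 and 11.5 in counts-per-million units (CPM, scaled for library size and composition) in the siControl samples and 2.87, 3.22 and 3.35 CPM in the siKMT9α#1 samples. The groups did not overlap, and the log2 fold change was −1.77 with a standard error (SE) of 0.12 (adjusted p = 1.43e-10, from the quasi-likelihood test of edgeR, with the Benjamini-Hochberg procedure applied across the 13877 genes tested, as for every adjusted p that follows). The siRNA matches the stretch chr21:30254500-30254524 of hg19, minus strand, in coding sequence of exon 3 of the annotated transcript N6AMT1-201. It is shown because its 3′ end, in capitals, is the complement of the seed of the guide strand (bases 2 to 8), which recurs in some of the members below.
N6AMT1 target: acgctgtaacaaagttcACATTCAa

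Library totals ran from 13740097 to 19832395.5 counts, with 1 transcript kept per symbol. All 8 epithelial markers examined had a mean of at least 1 CPM. Their summed level was 4404 to 4888 CPM in the siControl samples and 2945 to 3134 CPM in the siKMT9α#1 samples, where EPCAM, KRT8, KRT18 and KRT19 fell, CDH1 rose and 3 markers were not called. Summed levels of 5 fibroblast markers were 6.98 to 9.0 CPM against 4.06 to 5.34 CPM, and COL1A2, COL3A1 and PDGFRB were below 1 CPM in every sample. The 4 endothelial markers, and PTPRC and CD3E among the leukocyte markers, were below 1 CPM in every sample. CD14, a monocyte marker, measured 3.22 to 3.77 CPM in the siControl samples and 1.70 to 2.17 CPM in the siKMT9α#1 samples, and fell by 0.86 on the log2 scale (adjusted p = 0.000233, edgeR). The part of these markers in the results below was not tested. In bulk RNA, fewer cells of a kind and less RNA per cell cannot be told apart.

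All 10 members were called at an adjusted p under 0.05, 7 higher and 3 lower after KMT9α knock-down. At that threshold 75.6% of all genes tested were called, 37.1% higher and 38.5% lower and a call by itself does not set the members apart. The threshold of the study's methods was p under 1e-08 and an absolute log2 fold change above 0.26. It was passed by 24.2% of genes, 13.5% higher and 10.7% lower. Of the members 5 passed: TGFB2, SMAD2, SMAD3 and SMAD7 rose and TGFBR3 fell. These passes come from the edgeR fit used here, on 1 transcript per symbol, and not from the study's own list of genes. The values of both groups did not overlap for 9 members, against 77.0% of all genes tested. TGFB3 is counted among these 9 and among the 3 lower, and its selection favoured a fall. The median log2 fold change was 0.40 over the members and −0.01 over all genes tested. SMAD3 and TGFB2 were the only members with an absolute log2 fold change above 1, a size that 20.4% of genes exceeded.

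**Figure D1:**
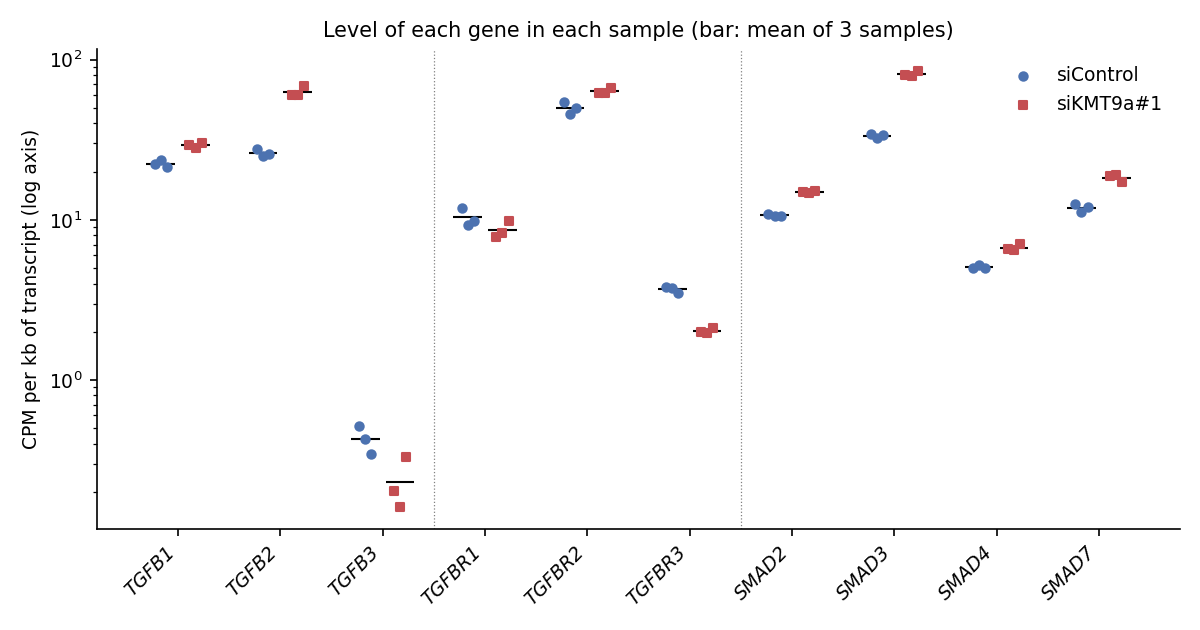
Level of each gene in each sample, in CPM per kb of transcript on a log axis. Blue circles are the 3 siControl samples, red squares the 3 siKMT9α#1 samples and black bars their means, and dotted lines separate ligands, receptors and SMADs. SMAD3 moves from 33.4 to 81.3 CPM per kb and TGFB2 from 26.1 to 62.9 CPM per kb, and only TGFBR1 has overlapping groups.

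The ligand genes moved apart. TGFB2 rose 2.41-fold and TGFB1 1.31-fold, while TGFB3, which was barely detected, fell. TGFB2 measured 163.5, 149.6 and 152.0 CPM in the siControl samples and 357.7, 356.7 and 405.8 CPM in the siKMT9α#1 samples. Each knock-down sample lay far above each control, and the log2 fold change was 1.27 (SE 0.06, adjusted p = 1.66e-13, edgeR); 13.2% of genes tested had a larger absolute change. TGFB1 measured 48.8, 51.5 and 46.6 CPM against 64.5, 61.7 and 65.6 CPM. Its groups were also separate, with a much smaller gap, and the log2 fold change was 0.39 (SE 0.06, adjusted p = 3.98e-06, edgeR). TGFB3 gave 31, 22 and 21 counts in the siControl samples and 8.5, 7 and 20 counts in the siKMT9α#1 samples, or 1.65, 1.36 and 1.09 CPM against 0.642, 0.512 and 1.05 CPM. The third knock-down sample reached almost the lowest control, and the gene passed the filter on low counts through its control samples, so a fall was built into its selection. The fitted log2 fold change of TGFB3 was −0.84 (SE 0.30, adjusted p = 0.0150, edgeR). That call was lost with DESeq2 (−0.87, adjusted p = 0.0598) and without siControl replicate 1 (−0.66, adjusted p = 0.0766), siKMT9α#1 replicate 1 (−0.72, adjusted p = 0.0556) or siKMT9α#1 replicate 2 (−0.65, adjusted p = 0.0759), and the fitted change was −1.28 without siKMT9α#1 replicate 3.

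In the deposited table TGFB1 was read from NM_000660 (hg19 chr19:41836812-41859831, minus strand), TGFB2 from NM_001135599 (chr1:218518676-218617961, plus strand) and TGFB3 from NM_003239 (chr14:76424442-76448092, minus strand). No other symbol in the table overlapped the span of any of the 10 members. The start of TGFB2 is shown because this ligand changed most. It is the RefSeq promoter window from 250 bases before to 50 bases after the start, GRCh38.p14 chr1:218345086-218345385, plus strand. Capitals mark the short SMAD-binding box CAGACA, which begins 53 bases before the start, the E-box CACGTG, which shares letters with it and begins 49 bases before the start, and the TATA box TATAAA, which begins 29 bases before the start.
TGFB2 promoter: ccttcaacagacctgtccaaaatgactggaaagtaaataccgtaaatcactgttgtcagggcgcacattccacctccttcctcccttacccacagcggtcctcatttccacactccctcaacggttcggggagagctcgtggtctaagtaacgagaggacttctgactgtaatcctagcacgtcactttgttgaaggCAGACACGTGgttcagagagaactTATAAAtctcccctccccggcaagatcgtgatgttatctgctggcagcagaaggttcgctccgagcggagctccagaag
The window holds 51.7% G and C and 14 CpG dinucleotides. Searched on both strands of 27305 such promoters, CAGACA was present in 16.8%, CACGTG in 7.43% and TATAAA in 12.0%. Among the 10 members, CAGACA and TATAAA were found for TGFB2 alone, and CACGTG for TGFB2, TGFB3 and SMAD3. CAGAC without the last A was not counted here, and it occurs in windows of other members, SMAD3 among them. These matches describe letters in the window and are not measured binding sites.

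The receptor genes changed in both directions. TGFBR3 fell to 0.552 of its control level, TGFBR2 rose 1.27-fold, and TGFBR1 was slightly lower with overlapping samples. TGFBR3 measured 24.6, 24.2 and 22.4 CPM in the siControl samples and 12.9, 12.7 and 13.5 CPM in the siKMT9α#1 samples. The samples were tight within each group and far apart between groups, with a log2 fold change of −0.86 (SE 0.08, adjusted p = 8.96e-09, edgeR) that 26.0% of genes exceeded in size. TGFBR2 measured 254.6, 214.6 and 232.5 CPM against 290.7, 288.7 and 314.1 CPM. All knock-down samples were above all controls, and the log2 fold change was 0.35 (SE 0.06, adjusted p = 2.18e-05, edgeR). TGFBR1 measured 77.0, 59.6 and 63.6 CPM against 50.4, 53.3 and 63.8 CPM. The third knock-down sample lay above 2 of the 3 controls, and siControl replicate 1 was the highest of all. The log2 fold change of TGFBR1 was −0.25 (SE 0.09, adjusted p = 0.0142, edgeR), and the exact two-sided permutation test gave p = 0.3, against 0.1, the smallest p that 3 against 3 samples allow, for each of the other members. TGFBR1 lost its call with DESeq2 (−0.25, adjusted p = 0.157) and without siControl replicate 1 (−0.12, adjusted p = 0.151), siKMT9α#1 replicate 1 (−0.18, adjusted p = 0.0802) or siKMT9α#1 replicate 2 (−0.21, adjusted p = 0.0702).

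TGFBR1 was read from NM_004612 (hg19 chr9:101867412-101916473, plus strand), TGFBR2 from NM_001024847 (chr3:30647994-30735633, plus strand) and TGFBR3 from NM_001195683 (chr1:92145900-92351836, minus strand). The 3′ untranslated regions of TGFBR3 and TGFBR1 hold the 7 letters ACATTCA, which pair with the seed of the guide strand of siKMT9α#1. The sites are shown with the match in capitals, in hg19 at chr1:92148360-92148384 (minus strand) and chr1:92147615-92147639 (minus strand) for TGFBR3 and at chr9:101915245-101915269 (plus strand) for TGFBR1.
TGFBR3 first site: tcacctggcACATTCAttttctcag
TGFBR3 other site: tagatatacACATTCAataaggaac
TGFBR1 site: tggttaataACATTCAacctgttta
Among the 10 members, ACATTCA was found on the transcript strand of the annotated 3′ untranslated region for 3, namely TGFBR3, TGFBR1 and SMAD2. It was present in 14.1% of the 12760 tested genes with such a region, or 0.0860 sites per kb over all of them. The region measured 3396 bases in TGFBR3, 4887 in TGFBR1 and 32870 in SMAD2, with 2, 1 and 2 sites. The share of genes with a site takes no account of length. The match to the seed of the siControl guide, ACGCAAA, was found for none of the 10 and for 1.92% of those genes. TGFBR3 and TGFBR1 fell and SMAD2 rose, and the part of these matches in the changes was not tested.

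**Figure D2:**
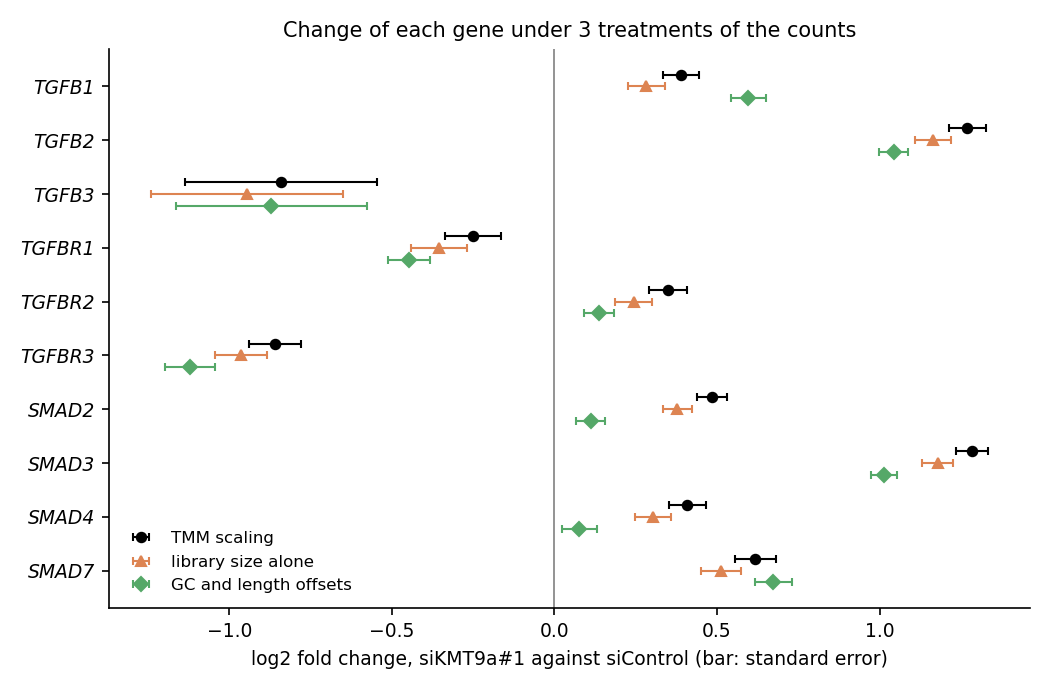
Log2 fold change of each gene, siKMT9α#1 against siControl, with bars of 1 standard error. Black circles use TMM scaling as in the text, orange triangles the library size alone, and green diamonds add offsets for GC content and length. No gene changes sign, TGFB2 and SMAD3 stay above 1 in all 3, and SMAD4 comes closest to 0, at 0.08 with the offsets.

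All 4 SMAD genes rose. SMAD3 rose 2.44-fold, more than any other member, and the inhibitory SMAD7 rose 1.53-fold, SMAD2 1.40-fold and the common partner SMAD4 1.33-fold. SMAD3 measured 212.3, 200.8 and 209.3 CPM in the siControl samples and 497.4, 490.4 and 528.0 CPM in the siKMT9α#1 samples. The groups were far apart, with a log2 fold change of 1.28 (SE 0.05, adjusted p = 1.57e-14, edgeR) that 12.8% of genes exceeded in size. SMAD7 measured 38.5, 34.6 and 37.04 CPM against 57.6, 59.0 and 53.1 CPM. All of its knock-down samples exceeded all controls, and the log2 fold change was 0.62 (SE 0.06, adjusted p = 2.79e-08, edgeR). SMAD2 measured 112.3, 108.9 and 110.0 CPM against 154.9, 151.4 and 156.7 CPM. Its samples varied little within each group, and the log2 fold change was 0.48 (SE 0.05, adjusted p = 1.29e-08, edgeR). SMAD4 measured 43.5, 45.7 and 43.7 CPM against 57.5, 56.9 and 61.6 CPM. Its groups were separate too, with a log2 fold change of 0.41 (SE 0.06, adjusted p = 2.16e-06, edgeR).

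The smaller changes depended on a joint correction for GC content and length, whose parts were not run separately. GC content was taken from 1 annotated transcript per gene and length from the counted transcript, and these can differ. By that measure SMAD2, SMAD4 and TGFBR2 held 40.3%, 41.1% and 47.0% G and C, against a median of 48.6% over genes tested. TGFB1 held 63.6%. The counted transcripts of SMAD2 and SMAD4 were also long, at 10363 and 8748 bases against a median of 2922 bases. The annotated SMAD2 transcript measured 34626 bases, so its GC content describes a longer sequence than the one counted. With offsets for GC content and length in the fit, the log2 fold change of SMAD4 was 0.08 and no longer called (adjusted p = 0.199, edgeR). That of SMAD2 was 0.11 (adjusted p = 0.0239), that of TGFBR2 0.14 (adjusted p = 0.0104), that of TGFB1 0.60 (adjusted p = 1.61e-10) and that of TGFBR1 −0.45 with the same offsets. SMAD2 then no longer reached the size of 0.26 in the threshold of the study's methods, while TGFB1 passed that threshold. SMAD3 (1.01), TGFB2 (1.04), SMAD7 (0.67), TGFBR3 (−1.12) and TGFB3 (−0.87) moved by less than 1.5 times. The median over the members was 0.12 with the offsets, against 0.40 without, and over all genes tested it stayed at −0.01. Scaling by library size alone moved the median of all genes by −0.11 on the log2 scale and kept the direction and call of each member.

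SMAD2 was read from NM_005901 (hg19 chr18:45359466-45456926, minus strand), SMAD3 from NM_005902 (chr15:67358195-67487533, plus strand), SMAD4 from NM_005359 (chr18:48556583-48611411, plus strand) and SMAD7 from NM_005904 (chr18:46446223-46477081, minus strand). Of the 2 seed matches in the annotated 3′ untranslated region of SMAD2, 1 lies within the transcript that was counted, at chr18:45364868-45364892, minus strand, and is shown with the match in capitals.
SMAD2 site: ttataatacACATTCAgttagtaaa
The promoter window of SMAD3, the member with the largest rise, is GRCh38.p14 chr15:67065352-67065651 on the plus strand, from RefSeq. The capitals mark an E-box, CACGTG, that begins 173 bases before the start.
SMAD3 promoter: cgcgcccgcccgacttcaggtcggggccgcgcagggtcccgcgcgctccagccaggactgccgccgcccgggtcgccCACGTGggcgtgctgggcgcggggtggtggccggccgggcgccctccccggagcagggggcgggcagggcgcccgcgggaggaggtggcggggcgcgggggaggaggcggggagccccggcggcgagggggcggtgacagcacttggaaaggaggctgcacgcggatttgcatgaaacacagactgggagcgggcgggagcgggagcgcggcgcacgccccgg
It differs from the TGFB2 window in composition, with 80.3% G and C and 44 CpG dinucleotides. GGGCGG, the GC box bound by SP1, was present in 5 of the 10 member promoters and in 44.6% of all promoters. The AP-1 element TGACTCA, searched in the same way, was in none of the 10 and in 4.92% of all promoters, which says only that these letters are absent from these windows.

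Transcripts of a member gave nearly the same change where the table listed more than 1. The 4 SMAD3 transcripts ranged from 1.28 to 1.29 on the log2 scale, the 4 SMAD7 transcripts from 0.60 to 0.62 and the 4 TGFBR3 transcripts from −0.87 to −0.86. They share most of their exons and reads, so they are not separate measurements.

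Levels of different genes were compared as CPM per kb of transcript. In the siControl samples TGFBR2 was highest at 49.9 CPM per kb, followed by SMAD3 at 33.4, TGFB2 at 26.1 and TGFB1 at 22.4. SMAD7 at 11.9, SMAD2 at 10.7 and TGFBR1 at 10.3 CPM per kb came next, and the ranges of SMAD2 and TGFBR1 overlapped. SMAD4 at 5.06, TGFBR3 at 3.69 and TGFB3 at 0.431 CPM per kb closed the order. After KMT9α knock-down SMAD3 led at 81.3 CPM per kb, and only 4.59% of all symbols had a higher level, against 11.1% in the siControl samples. TGFBR2 at 63.5 and TGFB2 at 62.9 CPM per kb followed and overlapped. TGFB1 at 29.2, SMAD7 at 18.4, SMAD2 at 14.9, TGFBR1 at 8.65, SMAD4 at 6.70, TGFBR3 at 2.03 and TGFB3 at 0.231 CPM per kb kept the order they had in the controls.

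Without the GC and length offsets, the make-up of each family shifted towards its member that was already most abundant. Among ligand transcripts, counted per kb, TGFB2 made up 53.4% ± 1.85 (SD, n = 3) in the siControl samples and 68.1% ± 1.15 (SD, n = 3) in the siKMT9α#1 samples. TGFB1 went from 45.8% ± 1.88 to 31.7% ± 1.21, so it lost share while its own level rose, and TGFB3 held 0.877% ± 0.151 and 0.247% ± 0.0784. Among the receptors, TGFBR2 went from 78.1% ± 0.671 to 85.6% ± 0.766, TGFBR1 from 16.1% ± 0.768 to 11.6% ± 0.828 and TGFBR3 from 5.80% ± 0.529 to 2.73% ± 0.0619. Among the SMADs, SMAD3 went from 54.7% ± 0.214 to 67.0% ± 1.14. SMAD7 held 19.5% ± 0.520 and then 15.2% ± 1.17, SMAD2 17.5% ± 0.229 and then 12.3% ± 0.136, and SMAD4 8.31% ± 0.444 and then 5.53% ± 0.116. TGFB3 is given as a description, since its selection favoured a fall. The samples of both groups did not overlap for any of the other 9 shares, and each exact two-sided permutation test gave p = 0.1, the smallest it can give, before and after Benjamini-Hochberg adjustment over the 10 shares computed. Shares within a family sum to the whole and are not independent of each other. They were not computed with the GC and length offsets, which changed members of a family unequally. With those offsets TGFB1 rose more and TGFB2 less, and SMAD7 rose more and SMAD3 and SMAD2 less. The sizes of the shifts may therefore differ under them.

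The summed level rose most for the SMADs and the ligands. The 4 SMADs together measured 61.0 ± 1.60 CPM per kb (SD, n = 3) in the siControl samples and 121.2 ± 2.72 in the siKMT9α#1 samples, a ratio of 1.99. The 3 ligands measured 48.9 ± 1.56 and 92.3 ± 5.52 CPM per kb, a ratio of 1.89. The 3 receptors measured 63.9 ± 5.71 and 74.2 ± 4.14 CPM per kb, a ratio of 1.16. The lowest receptor sum after knock-down, 71.8 CPM per kb, was close to the highest control at 70.1 CPM per kb, while the other families were widely separated. Each exact two-sided permutation test again gave p = 0.1. Within these sums SMAD3 alone went from 33.4 to 81.3 CPM per kb, and TGFB2 alone from 26.1 to 62.9 CPM per kb. The sums were not computed with the GC and length offsets.

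**Figure D3:**
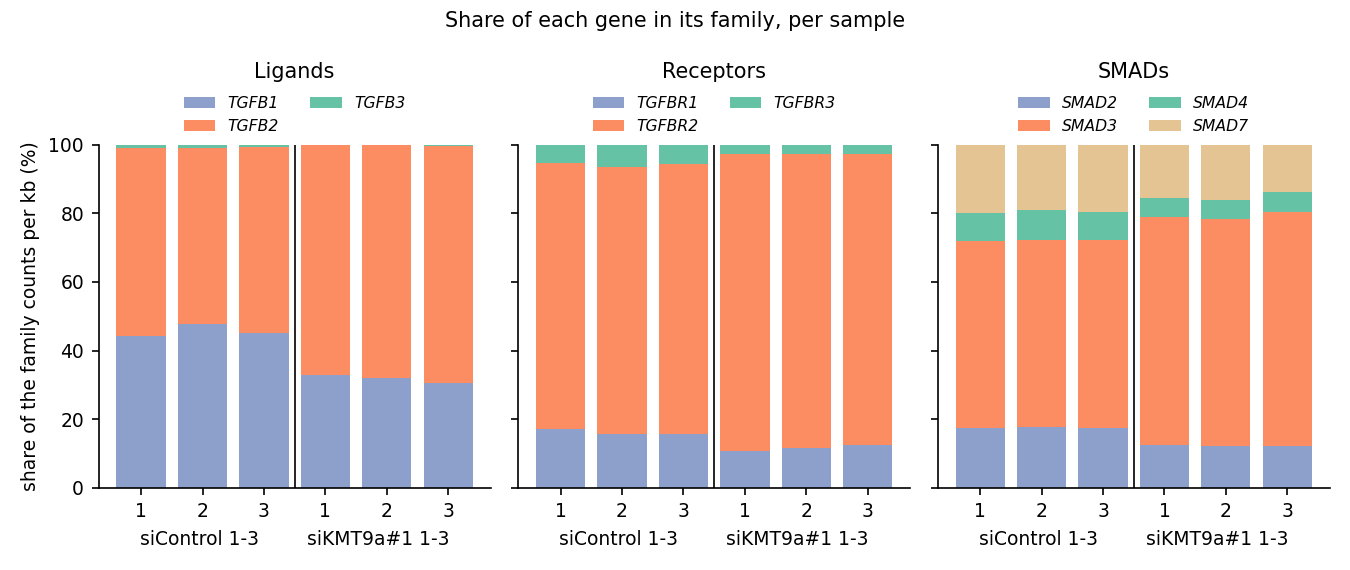
Share of each gene in the summed counts per kb of its family, in percent, for each of the 6 samples, with siControl to the left and siKMT9α#1 to the right of the black line. The orange segments, TGFB2, TGFBR2 and SMAD3, are larger in all 3 siKMT9α#1 samples than in any siControl sample.

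The other genes of the pathway were described by 6 lists with 89 genes, of which 81 were tested. The lists were chosen with earlier results of these data known, so their counts and medians are descriptions. Of the 81 genes, 53 rose, 13 fell and 15 were not called, with a median log2 fold change of 0.45 beside −0.01 over all genes tested. Called genes were thus 81.5% of those tested, near the 75.6% over all genes tested, of which 37.1% were higher and 38.5% lower. Of 6 genes in these lists that did not reach the filter's level in every sample of both groups, 4 were called, all higher. Of the list for ligand latency and activation, 11 of 12 genes were tested, 10 rose and 1 fell, beside 75.6% called over all genes tested, and the median was 1.32. FBN1, the fibrillin that anchors latent complexes in the matrix, went from 13.0 ± 0.757 CPM (SD, n = 3) to 46.8 ± 4.39 CPM, a log2 fold change of 1.85. The integrin genes ITGAV and ITGB8, whose products together activate latent TGF-beta, had log2 fold changes of 1.52 and 1.73. ITGAV was abundant, at 114.9 ± 11.9 CPM and then 328.7 ± 44.3 CPM, while ITGB8 was low, at 0.748 ± 0.231 CPM and then 2.43 ± 0.238 CPM. ITGB8 and ITGB6, which were counted among the 10, passed the filter through their knock-down samples, so their rise was built into their selection (ITGB6 is named here after its values were seen). FURIN, the protease that cleaves the ligand precursors, fell by 0.39 on the log2 scale (adjusted p = 2.24e-06, edgeR).

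Of 23 regulators of the receptors and SMADs, 22 were tested, 14 rose, 2 fell and 6 were not called, with a median log2 fold change of 0.42. The share called was 72.7%, beside 75.6% over all genes tested. PMEPA1, a pathway-induced inhibitor that holds SMAD2 and SMAD3 away from the receptor, measured 119.4, 105.8 and 114.5 CPM in the siControl samples and 510.0, 498.7 and 532.9 CPM in the siKMT9α#1 samples. It stood well apart from the rest of its list at a log2 fold change of 2.18 (SE 0.05, adjusted p = 4.01e-17, edgeR). SMURF1, a ubiquitin ligase that works with SMAD7, rose by 0.96 on the log2 scale, and TGIF2, a SMAD co-repressor, by 0.84. STUB1, a chaperone-linked ubiquitin ligase, and STRAP, a receptor-associated protein, had log2 fold changes of −0.39 and −0.27. With the GC and length offsets those were −0.16 and −0.18, and the list then held 13 that rose and 5 that fell, with a median of 0.24. The spans of TGIF2 and STUB1 overlap other genes, so part of their counts may belong to those.

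The remaining SMADs act mostly for the related bone morphogenetic protein (BMP) branch. SMAD1 rose from 11.0 ± 0.344 CPM (SD, n = 3) to 23.97 ± 0.506 CPM, a log2 fold change of 1.13 (adjusted p = 1.24e-10, edgeR). SMAD6, an inhibitory SMAD, had a log2 fold change of 0.28 (adjusted p = 0.0126, edgeR), and its call was lost without siKMT9α#1 replicate 3 (0.17, adjusted p = 0.120) and with library size alone (0.17, adjusted p = 0.108). SMAD5 measured 90.4 ± 2.49 CPM and 92.5 ± 4.46 CPM, and its log2 fold change of 0.04 (SE 0.05, adjusted p = 0.538, edgeR) was −0.07 with library size alone. With the GC and length offsets SMAD5 was −0.16 and called lower (adjusted p = 0.00254, edgeR). SMAD9 did not pass the filter, at 0.204 ± 0.129 CPM and 0.430 ± 0.0565 CPM. SMAD5 overlaps an antisense gene, and the sources used here do not say whether counting was by strand.

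Genes of the activin and BMP branches were mixed. Of 15 ligands and antagonists, 12 were tested, 6 rose, 4 fell and 2 were not called, with a median of 0.17. The share called was 83.3%, beside 75.6% over all genes tested. NOG, which was counted among the 6, passed the filter through its knock-down samples, so its rise was built into its selection (NOG is named here after its values were seen). INHBA, which encodes the activin A subunit, rose by 1.85 on the log2 scale from 1.23 ± 0.184 CPM to 4.39 ± 0.956 CPM, and BMP6 and BMP2 rose by 1.27 and 1.00. BMP4 fell by 1.25, BMP7 by 0.79 and the activin antagonist FSTL3 by 0.40. Of 10 receptors, 8 were tested, 5 rose, 2 fell and 1 was not called, which is 87.5% called beside the same 75.6%. BMPR1B, ACVR1B and ACVR2A had log2 fold changes of 0.64, 0.50 and 0.44. BMPR1A fell by 1.40 (27.8 ± 1.49 CPM to 10.5 ± 1.07 CPM) and ACVR2B by 0.91. With the GC and length offsets, FSTL3 was −0.22, ACVR1B 0.33 and ACVR2B −1.38, all still called, and the receptor list held 4 that rose and 3 that fell, with a median of 0.07 in place of 0.27. INHBA, BMP6, ACVR2A and ACVR2B overlap other genes and share the limit given for SMAD5.

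Of 25 genes known as targets of TGF-beta in epithelial cells, all were tested. In this list 16 rose, 4 fell and 5 were not called, with a median log2 fold change of 0.77. Earlier results of these data were known when the list was chosen, so these numbers are a description. The share called was 80.0%, near the 75.6% over all genes tested. IL11, a cytokine gene, measured 61.9, 64.5 and 65.3 CPM in the siControl samples and 441.9, 426.9 and 400.9 CPM in the siKMT9α#1 samples, a log2 fold change of 2.73 (SE 0.05, adjusted p = 2.48e-18, edgeR). Its groups were separated by a wide gap. The basement membrane collagen genes COL4A1 and COL4A2 rose by 2.21 and 1.77 on the log2 scale, and SNAI2, a transcription factor of epithelial-mesenchymal transition, had a log2 fold change of 2.02 from a low level of 0.669 ± 0.206 CPM. SNAI2 passed the filter through its knock-down samples, so a rise was built into its selection. The list gives no expected direction for its genes, so the rises and falls are not a reading of pathway output. Other targets fell. TAGLN, an actin-binding protein gene, measured 46.5, 47.1 and 46.9 CPM against 10.7, 10.5 and 10.04 CPM, a log2 fold change of −2.17 (SE 0.07, adjusted p = 1.83e-15, edgeR), and its span overlaps another gene. COL1A1, a fibrillar collagen gene, fell by 0.61, ID3, an inhibitor of helix-loop-helix factors, by 0.59 and the crosslinking enzyme gene TGM2 by 0.36. ID3 was −0.37 with the GC and length offsets and was still called. Most of these targets also answer to other signals, and neither SMAD phosphorylation nor pathway activity was measured in these files.

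**Figure D4:**
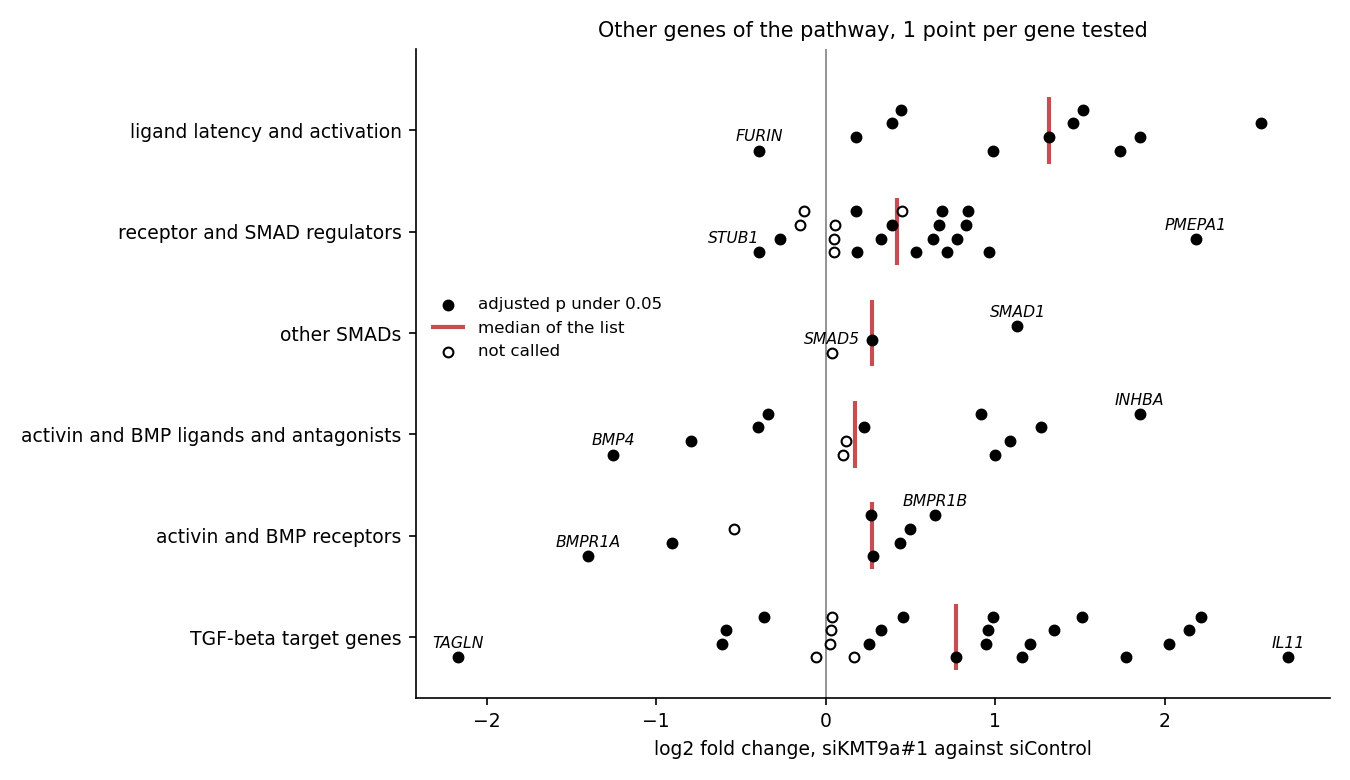
Log2 fold change, siKMT9α#1 against siControl, of the other pathway genes in 6 lists, 1 point per gene tested. Filled points passed an adjusted p under 0.05, open points did not, and red lines are list medians, from 0.17 for activin and BMP ligands and antagonists to 1.32 for ligand latency and activation. PMEPA1 and IL11 lie far to the right of their list medians and TAGLN far to the left.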

How the data were processed

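RNA of 3 siControl and 3 siKMT9α#1 samples of A549 cells was sequenced on the Illumina platform. Per the study's methods, the authors aligned reads to hg19 with STAR 2.5, counted them with HOMER and compared groups with edgeR. The authors deposited 1 table of estimated counts per RefSeq transcript, in steps of 0.5, with 36.4% of values not whole. The table also holds deposited linear ratio (fold change) and p-value columns of the authors' comparison, which were not used. Library preparation, strand setting and counting options are not given in the sources used here.

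Of 38767 rows, 1182 without a symbol and counts were left out, and for each of 23180 symbols the transcript with the largest summed count was kept. Counts were rounded, filtered with filterByExpr (13877 genes), scaled by TMM (factors 1.03 to 1.04 in siControl and 0.964 to 0.965 in siKMT9α#1) and tested with edgeR 4.0.16 quasi-likelihood in R 4.3.3, with Benjamini-Hochberg adjustment over all genes tested and no covariate. The SE is the absolute log2 fold change over the square root of F, with a median of 0.0768 over genes. Single values were compared by exact permutation of log2(CPM + 0.01).

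The alternatives were scaling by the library size alone or by RLE factors, omitting the filter or asking for 10 counts in each of the 6 samples, a replicate block, GC and length offsets (97.1% of genes tested had a GC value), both together, DESeq2 1.42.0, each sample left out and family shares without length. The members and lists were chosen with earlier results of these data known. Genes named beside the members are N6AMT1 and, per list, up to 3 called genes with the largest rise and 3 with the largest fall among those with a mean of at least 1 CPM and groups that do not overlap, 5 each way for target genes, and every gene of lists with 5 or fewer, of which some are not reported here. Marker genes are named for the label check. Seed matches were searched in annotated 3′ untranslated regions lifted to hg19, and promoters in the RefSeq table. Protein data of the study were not analysed here.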

Additional observations from a re-analysis of the deposited data

How the results depend on the processing

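SMAD3, TGFB2, TGFBR3, SMAD7, SMAD2, TGFB1 and TGFBR2 kept direction and the call at an adjusted p under 0.05 under every alternative run. The size of some was less stable: the lowest log2 fold change was 0.11 for SMAD2 and 0.14 for TGFBR2, against 0.48 and 0.35 in the main fit. The highest adjusted p of SMAD2 over these edgeR and DESeq2 fits was 0.0433. The number of members called lower was 1 with DESeq2 and 1 to 3 when a sample was left out, where TGFB3 ranged from −1.28 to −0.65 and TGFBR1 from −0.36 to −0.12. DESeq2 gave −0.87 for TGFB3 and −0.25 for TGFBR1, neither called. TGFB3 was not fitted with at least 10 counts in every sample. SMAD4 was 0.0761 with GC and length offsets and 0.0748 with the replicate block added, neither called. SMAD5 was −0.0700 with library size alone, −0.16 with the offsets and −0.16 with block and offsets. Called genes among the other SMADs numbered 1 with library size alone, 1 to 2 with a sample left out and 3 with the offsets, where SMAD5 was called lower. Past the threshold of the study's methods were 3357 genes, 6070 without a filter on low counts, and 2326 to 4085 with a sample left out. Without division by length, the change in share (percentage points, siKMT9α#1 minus siControl) was −9.23 for TGFB1, 9.73 for TGFB2, −5.34 for TGFBR1, 9.13 for TGFBR2, −3.79 for TGFBR3, −7.76 for SMAD2, −3.54 for SMAD4 and −1.89 for SMAD7. These directions held, and the cause of the other moves was not tested.

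Same-numbered samples of both groups did not deviate together (correlations −0.08, 0.02 and −0.08, and 0 of 6 samples correlated best with their own number), so the numbers were not taken as pairs. With the replicate block 10229 genes were called against 10492, 2342 passed the threshold of the study's methods, and no member's call changed. TGFB3, with 7 to 31 counts per sample, is limited by depth.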
